A study of Mus musculus with 12 samples.

Results

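The genes of MHC class II antigen presentation were followed in gingival tissue, the soft tissue around the teeth, of WT and CybbKO mice with and without a molar ligature. The 9 members were taken by symbol from the 21965 genes of the count table: Ciita, H2-Aa, H2-Ab1, H2-Eb1, Cd74, H2-DMa, H2-DMb1, H2-Oa and H2-Ob. All 9 had an entry, and all 9 passed the filter on low counts that left 15046 genes for testing. Polyadenylated RNA had been sequenced in 12 libraries, with 3 each from naive WT, ligated WT, naive CybbKO and ligated CybbKO mice, each mouse a separate animal per the study's design. WT mice were C57BL/6 in the labels, C57BL/6J in the study's methods, and carried no disrupted allele. CybbKO mice, Cybb-/- in the labels, were a knockout that the sources do not restrict to a cell type, and all mice were under 12 weeks of age per the labels, while the study's methods give a narrower age range. Ligated mice had a silk thread tied around a maxillary molar, on the right side per the labels and on the left in a legend of the study, and their tissue was taken after 8 days. Naive mice had no ligature. Levels are given as CPM, a gene's counts per 1e+06 counts of its library after TMM scaling, and n is the number of libraries.

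MHC class II molecules are cell-surface proteins that show peptides of engulfed material to CD4 T cells, and each is a pair of an alpha and a beta chain. Dendritic cells, Langerhans cells of the oral epithelium, macrophages and B cells carry them, and interferon-gamma can bring them out on other cells. CIITA, which does not bind DNA itself, switches the genes on through proteins bound at their promoters (RFX at the X1 box, CREB at the neighbouring X2 box and NF-Y at the Y box). The invariant chain, the product of Cd74, fills the new molecule until proteases trim it, H2-DM then exchanges its remnant for peptide, and H2-O holds H2-DM back. In C57BL/6 mice the E alpha chain is not made, so H2-Eb1, the E beta chain, has no surface partner there, and H2-Ea was not analysed here.

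The promoters are shown first because class II genes are known for a shared layout of boxes at which CIITA acts. In the RefSeq promoter table of GRCm38.p6, 6 members had an entry, with 7 promoters in all, and H2-Ab1, Ciita and Cd74 had none. The 250 bases before each start were searched on both strands for 4 sets of letters. The CCAAT box of NF-Y, written ATTGG on the other strand, was found in 6 members, and in 5 of them it began within 100 bases of the start. The longer Y box, CTGATTGG, contains the CCAAT box and was found in 3 members, H2-Oa, H2-Aa and H2-Eb1. An X1 box, AACNGATG, was found in H2-DMb1 and H2-Eb1, and a cyclic AMP response element, TGACGTCA, the letters that CREB reads, in H2-Aa. Of all 32851 promoters in the table, 33.8% held the CCAAT box, 3.83% the Y box, 1.98% the X1 box and 1.55% the cyclic AMP response element. The following 60-base windows lie before the start of 3 members and are written 5′ to 3′ in the direction of the gene. Capitals mark the CCAAT box in each, the cyclic AMP response element in H2-Aa and the X1 box in H2-Eb1.
H2-Ob (chr17:34238803-34238862, plus strand): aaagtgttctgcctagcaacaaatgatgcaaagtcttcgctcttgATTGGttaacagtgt
H2-Aa (chr17:34287857-34287916, minus strand): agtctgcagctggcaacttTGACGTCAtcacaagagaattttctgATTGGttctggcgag
H2-Eb1 (chr17:34305763-34305822, plus strand): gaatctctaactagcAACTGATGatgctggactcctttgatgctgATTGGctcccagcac
In these windows ATTGG begins 57 bases before the start of H2-Ob, 48 before that of H2-Aa and 59 before that of H2-Eb1. A match of letters is a description of the sequence and does not show that a protein binds there.

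Before the members, the targeted gene was checked. Cybb, which encodes the membrane subunit of the Nox2 NADPH oxidase, had 5.60, 5.38 and 4.19 CPM in naive WT and 8.41, 15.2 and 12.8 CPM in ligated WT. In the libraries labelled CybbKO it had 41.6, 56.3 and 45.9 CPM without and 56.1, 51.1 and 63.7 CPM with the ligature. Its lowest level under the CybbKO label was above its highest under WT, and counts summed over all exons cannot tell whether a disrupted transcript was read. All differences from WT below are therefore those of the libraries labelled CybbKO, and CybbKO names that label. Gene counts summed to 27958819 in the shallowest and 42613423 in the deepest library. The 7 keratin genes of oral epithelium summed to between 75700 and 142000 CPM in each library, and none was at 0 in a group. Naive WT libraries stood apart by salivary gland genes, whose 5 markers summed to 58 CPM in replicate 1 and 29400 CPM in replicate 3, against 1640 to 5080 CPM in the other 10 libraries.

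Taken per kilobase of exon, so that genes can be set side by side, the members fell into 3 tiers of level. In naive WT, Cd74 was the most abundant at 66.7 ± 6.15 CPM per kilobase (SD, n = 3), followed by H2-Eb1 at 28.1 ± 1.97, H2-Aa at 20.3 ± 1.77 and H2-Ab1 at 17.3 ± 1.88 (each SD, n = 3). The H2-DM chains formed the middle tier, with H2-DMb1 at 3.19 ± 0.667 and H2-DMa at 1.42 ± 0.319 CPM per kilobase (each SD, n = 3). Ciita at 0.310 ± 0.0320, H2-Ob at 0.233 ± 0.0267 and H2-Oa at 0.210 ± 0.0273 CPM per kilobase (each SD, n = 3) were the lowest. The 6 genes of the upper and middle tiers kept this order of mean level in all 4 groups. The libraries of H2-Aa and H2-Ab1, neighbours in this order, overlapped in every group, as did those of H2-Ob and H2-Oa. Those of H2-Eb1 and H2-Aa, also neighbours, overlapped in naive and in ligated libraries labelled CybbKO and did not in WT. H2-Oa lay above H2-Ob on average in the naive libraries labelled CybbKO, at 0.314 ± 0.171 against 0.232 ± 0.0200 CPM per kilobase (each SD, n = 3). Exon lengths count the bases of all annotated transcripts of a gene, so a gene with long alternative transcripts reads lower than its main transcript would. H2-DMb1 has a near-identical neighbour, H2-DMb2, and reads may have been split between them.

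**Figure D1:**
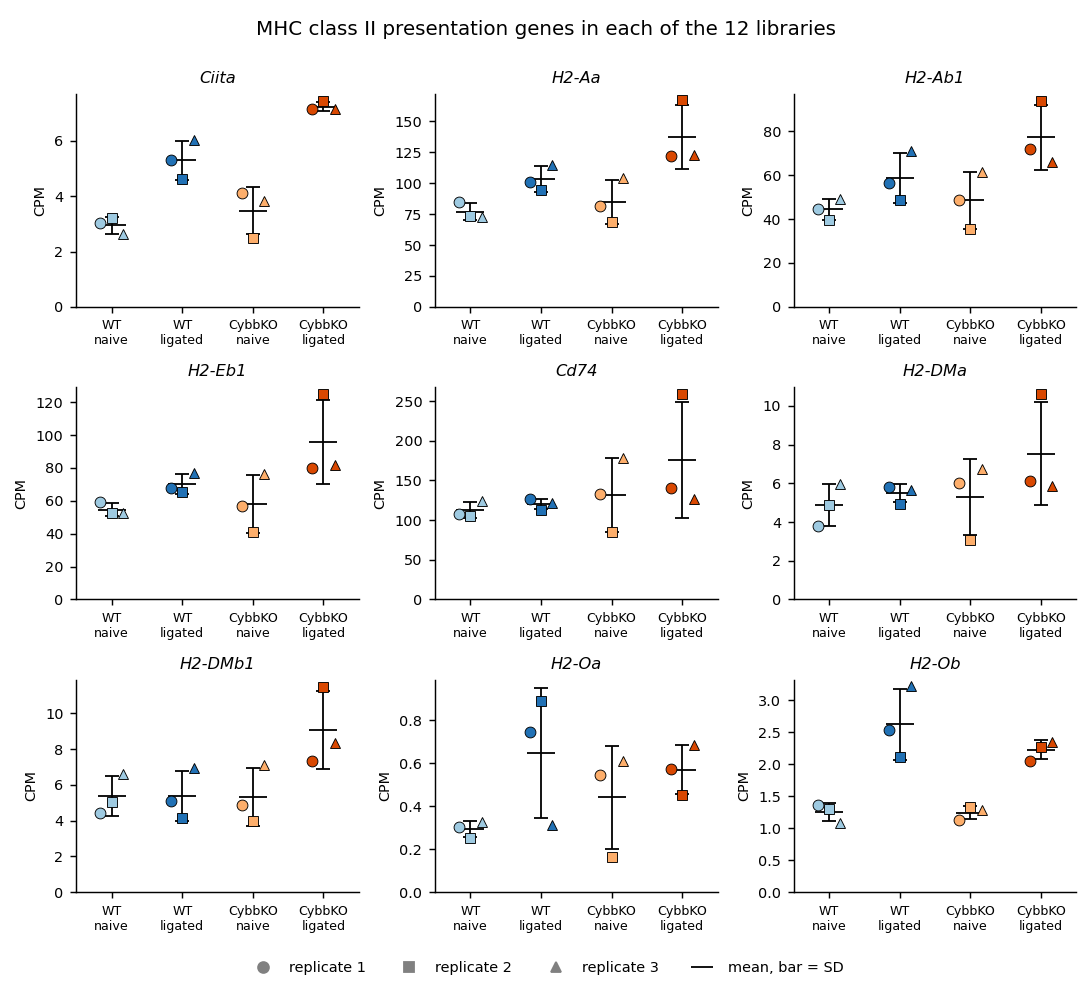
CPM (y axis, linear, from 0) of the 9 members in naive and ligated WT and CybbKO libraries (x axis). Each point is 1 library, its shape is the replicate number, the wide line is the group mean and the bar is the SD over 3 libraries. Ciita, H2-Aa, H2-Eb1 and H2-Ob separate ligated from naive libraries in both genotypes, and CybbKO ligated replicate 2 is the highest of the 12 libraries for 7 of the 9 genes.

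Ciita (ENSMUSG00000022504; chr16:10480059-10528418 of GRCm38, plus strand), the class II transactivator, had 3.02, 3.23 and 2.62 CPM in naive WT and 5.30, 4.61 and 6.02 CPM in ligated WT. In the libraries labelled CybbKO it had 4.13, 2.50 and 3.81 CPM without the ligature and 7.15, 7.44 and 7.14 CPM with it. Ligated libraries were above naive ones in both genotypes, with no overlap, and the ligated libraries labelled CybbKO were also all above the ligated WT libraries. The log2 fold change with the ligature was 1.06 (standard error 0.22, adjusted p = 0.00905, edgeR) in libraries labelled CybbKO, which passed the test. In WT it was 0.84 (standard error 0.22, adjusted p = 0.0590, edgeR), which did not pass.

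H2-Aa (ENSMUSG00000036594; chr17:34282744-34287823, minus strand) and H2-Ab1 (ENSMUSG00000073421; chr17:34257689-34269419, plus strand) encode the alpha and beta chains of the I-A molecule, the class II molecule of C57BL/6 mice. H2-Aa had 84.8, 73.5 and 72.8 CPM in naive WT, 101, 94.5 and 115 CPM in ligated WT, 81.2, 68.7 and 104 CPM in naive libraries labelled CybbKO and 122, 167 and 123 CPM in their ligated counterparts. The ligated libraries lay above the naive ones in each genotype. With the ligature H2-Aa rose in libraries labelled CybbKO, by 0.70 on the log2 scale (standard error 0.17, adjusted p = 0.0206, edgeR), and was at 0.42 in WT (standard error 0.17, adjusted p = 0.191, edgeR). H2-Ab1 had 44.6, 39.7 and 49.3 CPM in naive WT, 56.4, 48.8 and 70.9 CPM in ligated WT, 48.5, 35.7 and 61.5 CPM in naive libraries labelled CybbKO and 71.8, 94.0 and 65.9 CPM in their ligated counterparts. Its groups overlapped in WT and did not in libraries labelled CybbKO, where the log2 fold change was 0.67 (standard error 0.21, adjusted p = 0.0577, edgeR).

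H2-Eb1 (ENSMUSG00000060586; chr17:34305867-34316674, plus strand) had 59.1, 52.5 and 52.5 CPM in naive WT and 67.9, 65.6 and 76.8 CPM in ligated WT. In the libraries labelled CybbKO it had 57.0, 40.8 and 76.1 CPM without and 80.1, 125 and 81.6 CPM with the ligature. Each ligated group lay above its naive group, with log2 fold changes of 0.36 in WT (adjusted p = 0.394, edgeR) and 0.72 in libraries labelled CybbKO (standard error 0.22, adjusted p = 0.0507, edgeR), neither past the test. Cd74 (ENSMUSG00000024610), which lies outside the complex on another chromosome, had 108, 105 and 124 CPM in naive WT, 126, 113 and 122 CPM in ligated WT, 133, 85.1 and 178 CPM in naive libraries labelled CybbKO and 141, 259 and 127 CPM in their ligated counterparts. Naive and ligated libraries overlapped in both genotypes, and the log2 fold changes were 0.10 (95% interval -0.505 to 0.708) in WT and 0.41 (95% interval -0.196 to 1.02) in libraries labelled CybbKO. Without CybbKO ligated replicate 2 the latter was 0.02.

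The H2-DM chains, which load peptide, did not pass the test in any comparison. H2-DMa (ENSMUSG00000037649; chr17:34119541-34139101, plus strand) had 3.78, 4.90 and 5.98 CPM in naive WT, 5.82, 4.95 and 5.66 CPM in ligated WT, 6.03, 3.05 and 6.74 CPM in naive libraries labelled CybbKO and 6.14, 10.6 and 5.84 CPM in their ligated counterparts. Its libraries overlapped between naive and ligated tissue in both genotypes. H2-DMb1 (ENSMUSG00000079547; chr17:34153072-34160230, plus strand) had 4.42, 5.06 and 6.60 CPM in naive WT and 5.08, 4.16 and 6.93 CPM in ligated WT, a log2 fold change of 0.01 (95% interval -0.608 to 0.627) that turned to -0.21 without WT ligated replicate 3. In CybbKO it had 4.85, 4 and 7.14 CPM without and 7.31, 11.5 and 8.37 CPM with the ligature, which did not overlap, and the log2 fold change was 0.77 (standard error 0.28, adjusted p = 0.0994, edgeR).

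The H2-O chains, the brake on H2-DM, were the members with the largest log2 fold changes in WT. H2-Ob (ENSMUSG00000041538; chr17:34238903-34254414, plus strand) had 1.37, 1.30 and 1.09 CPM in naive WT and 2.54, 2.12 and 3.22 CPM in ligated WT, and 1.13, 1.33 and 1.28 CPM in naive libraries labelled CybbKO and 2.06, 2.27 and 2.35 CPM in their ligated counterparts. It rose with the ligature in both genotypes, by 1.06 in WT on the log2 scale (standard error 0.24, adjusted p = 0.0375, edgeR) and 0.84 in libraries labelled CybbKO (standard error 0.24, adjusted p = 0.0371, edgeR), and every ligated library was above every naive one. H2-Oa (ENSMUSG00000024334; chr17:34092340-34095234, plus strand) was near the limit of detection, with 6 counts in its lowest library. It had 0.305, 0.253 and 0.328 CPM in naive WT, 0.747, 0.890 and 0.311 CPM in ligated WT, 0.548, 0.166 and 0.610 CPM in naive libraries labelled CybbKO and 0.574, 0.455 and 0.685 CPM in their ligated counterparts. Its groups overlapped in both genotypes, and the log2 fold change in WT, 1.13, had a 95% interval of 0.0198 to 2.24 and an adjusted p of 0.242 (edgeR).

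**Figure D2:**
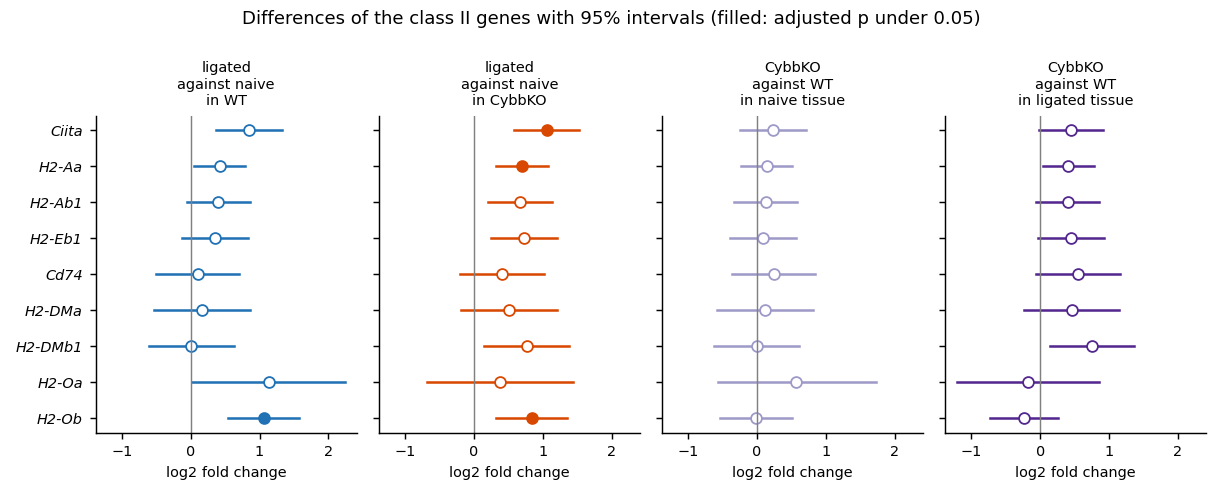
Log2 fold changes (x axis) of the 9 members (y axis) with their 95% intervals from edgeR, for the ligature in WT and CybbKO and for the libraries labelled CybbKO against WT in naive and ligated tissue. Filled points have an adjusted p under 0.05. All 9 points lie above 0 with the ligature in both genotypes, H2-Ob is filled in both, Ciita and H2-Aa in libraries labelled CybbKO, and no point is filled between the genotypes.

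Ligated against naive tissue asks what 8 days of ligature did to the class II genes. In WT 1 of the 9 members rose (H2-Ob) and 0 fell, where 2.31% of all 15046 genes were called higher. All 9 were higher on average, with a median log2 fold change of 0.40 against -0.03 over all genes tested. Naive and ligated libraries did not overlap for 4 members, H2-Aa, H2-Eb1, Ciita and H2-Ob, where 13.3% of all genes were higher without overlap. The call of H2-Ob was lost without any 1 of the 6 WT libraries, with adjusted p-values between 0.0561 and 0.135 (edgeR), although its log2 fold change stayed between 0.89 and 1.19. DESeq2 called 2 members, Ciita (adjusted p = 0.00571, DESeq2) and H2-Ob (adjusted p = 0.00316, DESeq2), where it called 5.66% of all genes higher. Scaled by library size alone, the median over all genes moved from -0.03 to 0.08, 477 of 545 called genes were higher in place of 348 of 481, and Ciita and H2-Ob were called, where 3.17% of all genes were called higher.

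In CybbKO 3 of the 9 members rose with the ligature (Ciita, H2-Aa and H2-Ob) and 0 fell, where 9.95% of all genes were called higher. All 9 were again higher on average, with a median log2 fold change of 0.70 against -0.03 over all genes. The libraries did not overlap for 6 members, which were Ciita, H2-Aa, H2-Ab1, H2-Eb1, H2-DMb1 and H2-Ob, against 18.5% of all genes. DESeq2 called 5 members, those 3 with H2-Ab1 (adjusted p = 0.0269, DESeq2) and H2-Eb1 (adjusted p = 0.0199, DESeq2), where it called 12.3% of all genes higher. The same 5 were called with scaling by library size alone, where 11.1% of all genes were called higher. Ciita was called with each of the 6 CybbKO libraries left out in turn, with adjusted p-values of at most 0.0345 (edgeR). H2-Aa lost its call without CybbKO naive replicate 1 (adjusted p = 0.0679, edgeR) or CybbKO naive replicate 2 (adjusted p = 0.0747, edgeR). H2-Ob lost it without CybbKO ligated replicates 1 (adjusted p = 0.0882, edgeR) or 3 (0.124), or CybbKO naive replicates 1 (0.119), 2 (0.0752) or 3 (0.0932), and H2-Ab1 and H2-Eb1 were called without CybbKO naive replicate 3 (adjusted p = 0.0362 and 0.0253, edgeR). The ligature comparisons of the 2 genotypes share no libraries, and whether they differ was tested as an interaction. No member passed it: 0 of 9 were called, with 0 at an unadjusted p under 0.05, where edgeR called 0% and had an unadjusted p under 0.05 for 2.27% of all genes. DESeq2 also gave 0 and 0 members, with 0% and 2.73% of all genes. The interaction nearest the threshold was that of H2-DMb1, with a difference of log2 fold changes of 0.76 (95% interval -0.115 to 1.63).

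Libraries labelled CybbKO against WT asks whether the genes differed with the Cybb genotype. In ligated tissue edgeR called 0 of 9 members, where 0.00665% of all genes were called, and DESeq2 called 0, where it called 0.0931% of all genes. An unadjusted p under 0.05 was given to 2 members by edgeR, H2-Aa and H2-DMb1, against 3.34% of all genes, and to 3 by DESeq2, those and Ciita, against 3.59%. Of the 9 members 7 were higher and the H2-O pair lower, with a median log2 fold change of 0.45 against 0.01 over all genes. The 3 ligated libraries labelled CybbKO were all above the 3 ligated WT libraries for 6 members, H2-Aa, H2-Eb1, Cd74, Ciita, H2-DMa and H2-DMb1, against 5.0% of all genes. The largest log2 fold change was that of H2-DMb1, 0.75 (standard error 0.28, 95% interval 0.134 to 1.36, adjusted p = 1, edgeR), and that of H2-Ob was -0.24 (95% interval -0.735 to 0.264).

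CybbKO ligated replicate 2 stood above its group. It had the highest value of all 12 libraries for 7 of the 9 members, the exceptions being H2-Oa and H2-Ob, and its 9 members summed to 677 CPM, against 438 and 422 CPM in the other ligated libraries labelled CybbKO and 339 to 407 CPM in ligated WT. Without it the median log2 fold change against WT in ligated tissue was 0.21 in place of 0.45, with 7 members still higher. Its Ptprc, the CD45 gene of all leukocytes, was 30.7 CPM against 66.2 and 83.3 CPM in its group. Its fibroblast markers summed to 2710 CPM against 6620 and 6140, its oral epithelium markers to 126000 against 83400 and 76100, and its skeletal muscle markers to 1420 against 476 and 427 CPM. Of the interferon-gamma genes it was the highest of all 12 libraries for Irf1 (62.7 CPM) and the lowest of its group for the receptor and kinase genes Ifngr1, Ifngr2, Jak1 and Jak2, and the list summed to 513 CPM against 552 and 622. Their part in the result was not tested. Ciita itself differed little within the group, and its log2 fold change against WT was between 0.36 and 0.55 with each ligated library left out in turn.

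In naive tissue edgeR and DESeq2 each called 0 of 9 members, and 0 had an unadjusted p under 0.05 by either. Of all genes edgeR called 0.00665% here too, and 2.03% had an unadjusted p under 0.05, against 0.0133% and 2.59% by DESeq2. The log2 fold changes ran from -0.01 for H2-Ob to 0.57 for H2-Oa, with a median of 0.13 and 7 of 9 higher, and every member overlapped between the genotypes. CybbKO naive replicate 3 had the highest value of its group for 7 of the 9 members. Without it the median was -0.04 and 2 members were higher, while without CybbKO naive replicate 2 the median was 0.31 and 8 were higher. The widest intervals, -0.572 to 1.72 for H2-Oa and -0.587 to 0.809 for H2-DMa, show the differences that 3 libraries a group could not resolve.

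Members of related roles were compared within each library. H2-Aa per H2-Ab1, as a ratio of CPM per kilobase, was 0.998 to 1.31 over the 12 libraries, and H2-Eb1 per H2-Ab1 was 1.41 to 1.78. H2-DMa per H2-DMb1 ran from 0.34 to 0.607. The ratio of H2-DMb1, the loader, to H2-Ob, its inhibitor, was 10.3, 12.5 and 19.3 in naive WT and 6.40, 6.28 and 6.89 in ligated WT, so that the ligated WT libraries lay below all the others. It was 13.8, 9.60 and 17.8 in naive and 11.3, 16.2 and 11.4 in ligated libraries labelled CybbKO, which overlapped. H2-DMa per H2-Oa, the ratio of the other chains of these molecules, did not separate ligated WT, with 3.18, 2.27 and 7.41 against 5.06, 7.91 and 7.44 in naive WT. No test was run on these ratios, and an exact permutation test of 3 libraries against 3 cannot give a p below 0.1.

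**Figure D3:**
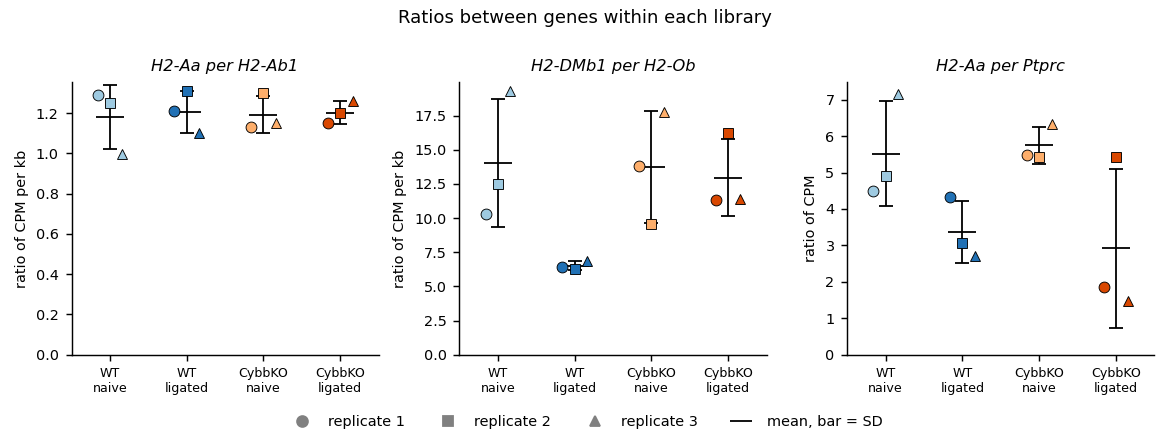
Ratios within each library (y axis, linear, from 0) of H2-Aa to H2-Ab1 and of H2-DMb1 to H2-Ob per length of exon, and of H2-Aa to Ptprc in CPM, in the 4 groups (x axis). Points are libraries, wide lines means and bars the SD over 3 libraries. H2-Aa per H2-Ab1 stays between 0.998 and 1.31, H2-DMb1 per H2-Ob is lowest in ligated WT, at 6.28 to 6.89, and H2-Aa per Ptprc reaches its lowest values in ligated CybbKO, at 1.48 and 1.85, with 5.43 in replicate 2.

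How the members moved together from library to library was described by the correlation of their deviations from the group means of log2 CPM over the 12 libraries. Among the 21 pairs that leave out H2-Oa and H2-Ob, Pearson's r was 0.465 to 0.976 with a median of 0.802, and H2-Aa with H2-Eb1 was the closest pair. For the 15 pairs with H2-Oa or H2-Ob it was -0.644 to 0.382 with a median of 0.235. The lowest value was that of H2-Oa with H2-Ob, the chains of one molecule. All genes of a library share its preparation and depth, and the counts of H2-Oa are few, so these values are descriptions.

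The genes whose pattern was most like that of the members were ranked by Pearson's r, over 12 libraries, with the mean standardized log2 CPM of the 9 members, among the 15037 other genes tested. The first 10 were Cdc42ep2, Selplg, Il12rb1, Coro1a, Alox5ap, Lgals3bp, Uba7, Cd40, Apol6 and Ksr1. Their r ran from 0.960 for Cdc42ep2 to 0.911 for Ksr1, and for Cdc42ep2 Spearman's rho was 0.958. Without the 2 libraries farthest from the median, CybbKO ligated replicate 2 and CybbKO naive replicate 2, the r of Cdc42ep2 was 0.951 and the lowest of the 10 was 0.826, that of Cd40. Selplg, which encodes a selectin ligand of leukocytes, had a mean of 7.22 CPM, and Coro1a, an actin regulator of leukocytes, 9.22 CPM. Of the 10, 9 were called higher with the ligature in libraries labelled CybbKO and 0 in WT, and they were ranked on these same libraries, so the counts are descriptions.

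Of the 7 genes for RFX, NF-Y and CREB1 subunits, 0 passed the test with the ligature in either genotype, and their median log2 fold changes were 0.01 in WT and -0.04 in libraries labelled CybbKO. Creb1 had the highest mean of them, with 52.3 to 86.6 CPM over the 12 libraries. Of the 6 tested genes from the interferon-gamma receptor to Irf1, 0 were called in WT and 1 in libraries labelled CybbKO. That was Irf1, a transcription factor of the Ciita promoter that interferon-gamma induces, with 20, 18.4 and 28 CPM in naive libraries labelled CybbKO and 34.3, 62.7 and 42.9 CPM in their ligated counterparts (log2 fold change 1.08, standard error 0.26, adjusted p = 0.0182, edgeR). In WT it had 19, 13.8 and 23.7 CPM without and 20.1, 26.1 and 24.3 CPM with the ligature (log2 fold change 0.32, adjusted p = 0.520, edgeR). Between the genotypes in ligated tissue Irf1 stood at 0.99 on the log2 scale (standard error 0.25, adjusted p = 1, edgeR). Irf1 was not called without CybbKO naive replicate 2. Ifng itself did not pass the filter on low counts and had at most 0.244 CPM in any library.

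Proteases free the class II groove of the invariant chain. Of 6 tested processing genes, 2 rose in WT and 3 in libraries labelled CybbKO, and 0 fell. Ctss, cathepsin S, which makes the last cuts of the invariant chain, had 25.7, 20.7 and 17.1 CPM in naive WT and 33.5, 45.6 and 58.2 CPM in ligated WT (log2 fold change 1.11, standard error 0.23, adjusted p = 0.0282, edgeR). In CybbKO Ctss had 17.3, 18.6 and 20.3 CPM without and 74.4, 53.7 and 87.9 CPM with the ligature (log2 fold change 1.94, standard error 0.23, adjusted p = 0.00185, edgeR). Lgmn, asparagine endopeptidase, rose by 0.91 in WT (adjusted p = 0.0145, edgeR) and 1.05 in libraries labelled CybbKO (adjusted p = 0.00240, edgeR) on the log2 scale, and Ctsb, cathepsin B, by 0.47 in libraries labelled CybbKO (adjusted p = 0.0470, edgeR). The count in WT was 1, Lgmn, without WT naive replicate 3 and 0 without WT naive replicate 1, while in libraries labelled CybbKO it was 4 without CybbKO ligated replicate 2 and 2, Ctss and Lgmn, without CybbKO naive replicates 2 or 3, where Ctsb lost its call. For Cd74, whose product Ctss cuts, the log2 fold changes were 0.10 and 0.41, and the difference between these genes was not tested.

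Of the 3 tested genes of class II turnover 0 were called in WT and 1 in libraries labelled CybbKO, March1, which encodes a ubiquitin ligase that sends class II molecules from the surface to degradation (log2 fold change 1.22, standard error 0.33, adjusted p = 0.0320, edgeR). It was not called without CybbKO naive replicates 2 or 3. Among 5 tested co-stimulatory and inhibitory ligands, which tell the T cell how to read the peptide, 0 were called in WT and 2 in libraries labelled CybbKO, Cd86 at 1.54 on the log2 scale (standard error 0.31, adjusted p = 0.00812, edgeR) and Cd40 at 1.19 (standard error 0.32, adjusted p = 0.0320, edgeR). On the T cell side, 0 of 7 genes were called in WT and 1 in libraries labelled CybbKO, Cd4, which encodes the co-receptor that binds class II, at 1.94 (standard error 0.47, adjusted p = 0.0208, edgeR). Cd4 is also carried by some myeloid cells. Cd4 was not called without CybbKO naive replicates 2 or 3, nor was Cd40 without those or CybbKO ligated replicate 2. The class II genes outside the members, H2-Eb2 and H2-DMb2, had 0 calls in either genotype, and H2-DMb2 averaged 1.32 to 2.13 CPM over the groups. Between the genotypes, 0 genes of these 7 lists were called in ligated or in naive tissue.

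**Figure D4:**
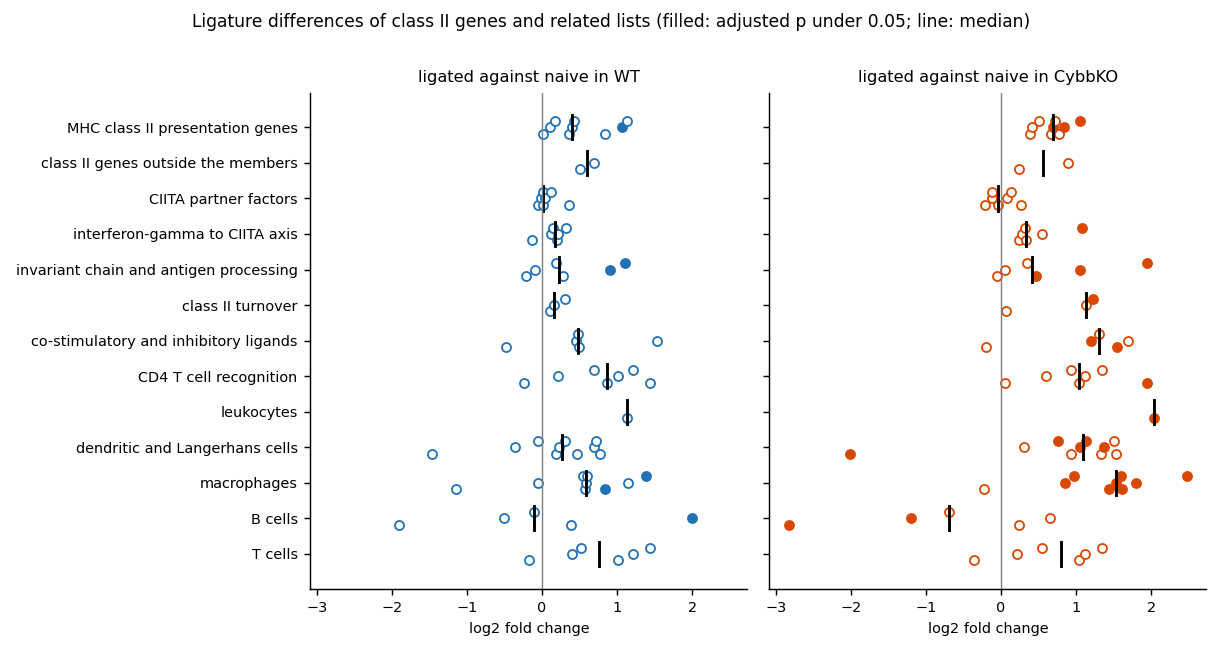
Log2 fold change with the ligature (x axis) of each tested gene of the 9 members, of the 7 pathway lists and of 5 lists of immune cell markers (y axis), in WT and in libraries labelled CybbKO. Each point is a gene, filled where the adjusted p was under 0.05, and the line is the list's median. The members' median is 0.40 in WT and 0.70 in libraries labelled CybbKO, while that of the macrophage list is 0.59 and 1.53 and Cd207 lies at -1.47 and -2.01.

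Markers of the cells that carry class II were read beside these values, since fewer cells of a type and less RNA per cell cannot be told apart in bulk tissue. Ptprc rose with the ligature in libraries labelled CybbKO, from 14.8, 12.7 and 16.4 CPM to 66.2, 30.7 and 83.3 CPM (log2 fold change 2.04, standard error 0.35, adjusted p = 0.00441, edgeR), and had a log2 fold change of 1.14 in WT (adjusted p = 0.0924, edgeR). The members' log2 fold changes in libraries labelled CybbKO ran from 0.38 to 1.06. H2-Aa per Ptprc, a ratio of CPM, was 4.49, 4.91 and 7.16 in naive and 4.32, 3.07 and 2.70 in ligated WT, and 5.49, 5.42 and 6.34 in naive and 1.85, 5.43 and 1.48 in ligated libraries labelled CybbKO. The part of leukocyte number in the members' differences was not tested.

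Of 9 macrophage markers, 2 were called higher in WT and 8 in libraries labelled CybbKO, and their summed level was 65.0 to 75.7 CPM in naive WT, 85.2 to 116 in ligated WT, 52.9 to 57.1 in naive CybbKO and 123 to 158 in ligated CybbKO. Of 10 dendritic and Langerhans cell markers, 0 were called in WT, and in libraries labelled CybbKO 4 were called higher (Itgax, Flt3, Zbtb46 and Fscn1) and 1 lower. The lower one was Cd207, which encodes langerin of Langerhans cells, with 6.61, 9.96 and 7.6 CPM in naive libraries labelled CybbKO and 2.40, 1.93 and 1.67 CPM in their ligated counterparts (log2 fold change -2.01, standard error 0.39, adjusted p = 0.00742, edgeR). In WT Cd207 had 12.5, 8.32 and 4.56 CPM without and 3.71, 1.67 and 3.79 CPM with the ligature (log2 fold change -1.47, standard error 0.38, adjusted p = 0.0617, edgeR), and it was called lower without WT naive replicate 3. The parts of these cells in the members' levels were not tested. Without CybbKO naive replicate 3, Itgax and Fscn1 were the markers of this list called higher, and without CybbKO naive replicate 2, 0 were, while Cd207 was called lower without either. Macrophage markers had 7 calls without CybbKO naive replicate 2, and 0 in WT without WT naive replicate 1. The summed level of the dendritic and Langerhans cell list was 31.6 to 40.3 CPM in naive WT, 34.7 to 48.4 in ligated WT, 27.2 to 35.7 in naive CybbKO and 35.8 to 57.0 in ligated CybbKO.

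B cells are the cells best known for H2-O. Their 9 markers summed to 2.22 to 4.05 CPM in naive WT, 3.53 to 6.64 in ligated WT, 4.69 to 7.82 in naive CybbKO and 5.16 to 5.70 in ligated CybbKO, none of them was at 0 in all libraries of a group, and 5 passed the filter. In libraries labelled CybbKO Ms4a1, which encodes CD20 of B cells, was called lower with the ligature, at a log2 fold change of -2.82 (adjusted p = 0.0144, edgeR), while H2-Ob rose. In WT Blk, a kinase of B cells that some T cells also carry, was called higher (2.00, adjusted p = 0.0486, edgeR), as H2-Ob was, and Ms4a1 was at -1.90, not called. Blk was not called without WT naive replicates 1 or 3, nor was Ms4a1 without CybbKO naive replicate 3. Plasma cell markers had 0 calls and summed to 0.958 to 3.39 CPM over the 12 libraries, with Tnfrsf17 at 0 in ligated WT. T cell markers also had 0 calls, and summed to 14.6 to 18.7 CPM in naive and 16.8 to 21.9 in ligated WT. In libraries labelled CybbKO the sums were 20.4 to 21.9 CPM without and 20.5 to 29 CPM with the ligature. Of the 6 tested T cell markers, 5 were higher on average with the ligature in each genotype, and Cd5, the most abundant, was lower. Their median log2 fold changes were 0.762 in WT and 0.795 in libraries labelled CybbKO. Of the lists for other tissue cells, neutrophil (1 of 6 in WT, 6 of 6 in libraries labelled CybbKO), fibroblast (1 and 4 of 5), endothelium (3 and 5 of 5) and skeletal muscle (0 and 1 of 5) markers had calls, all higher, and oral epithelium (7 genes) and salivary gland (5 genes) markers had 0. Without CybbKO naive replicate 3, 4 of the 6 neutrophil markers were called in the libraries labelled CybbKO, and without WT naive replicate 3, 0 were called in WT. Endothelium had 2 calls without CybbKO naive replicate 2, and fibroblast and endothelium markers had 0 in WT without WT naive replicate 1. Without CybbKO ligated replicate 2, Krt76 of the oral epithelium list and Cd5 of the T cell list were called lower in libraries labelled CybbKO. Myh2 of the skeletal muscle list was called higher in WT without WT naive replicate 3.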

How the data were processed

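RNA-seq of 12 gingival libraries was analysed from the raw counts per gene that the authors deposited, without normalization. The methods name STAR on GRCm38 with strand-specific featureCounts, while the processing notes name HTSeq 0.10.0, which leaves the counting tool unsettled, and the notes also name FastQC 0.10.1. Groups came from the sample labels. Counts were scaled by TMM, filtered with filterByExpr and fitted in 1 edgeR quasi-likelihood model of all 12 libraries (edgeR 4.0.16, R 4.3.3), with 1 mean per group. Benjamini-Hochberg adjustment ran over all 15046 genes, and called means an adjusted p under 0.05. The biological coefficient of variation was 0.24. Symbols and exon lengths came from GENCODE M21, which matched 21939 of 21965 genes. DESeq2 1.42.0, other scalings and filters, a robust fit, a replicate block, a fit of only the 6 libraries compared and each library left out in turn were alternatives, and list counts without 5 libraries that stood apart were chosen after seeing the data. The edgeR and DESeq2 fits were tested on simulated data for the ligature in WT only.

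The members and lists were chosen with earlier results of these data known. Named genes were the members, Cybb, up to 3 called genes of each pathway list (or the most abundant where none was called) and the 10 genes most like the members, while single markers and Ifng, Ifngr1, Ifngr2, Jak1, Jak2 and H2-Eb2 were named after their values were seen. Some genes of the lists are not reported here by name. The labels place the 3 mice of a group as separate animals, matched for age and sex. Ifi30 and Trac, in the lists, were not analysed here. Log2 CPM for correlations used a prior count of 2. No unmatched per-sample column was found.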

Additional observations from a re-analysis of the deposited data

How the results depend on the processing

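In WT, 1 member was called with the ligature, against 2 with DESeq2 or library size only and 0 with the replicate block, with only the 6 libraries compared or with any WT library left out (0 to 0). In CybbKO, 3 members were called, against 5 with DESeq2 or library size only, 1 with only the 6 libraries compared and 1 to 4 with a library left out. The replicate block left 2 there, H2-Aa and Ciita. Deviations of same-numbered libraries from their group means correlated at -0.228 to 0.277, with 2 of 18 pairs over 0.1, and those of other pairs at -0.34 to 0.428. No common pairing by replicate number was seen. Deviations within a group of 3 depend on each other, so these values cannot exclude a pairing of only some groups. No member was called between genotypes or for the interaction under any setting run.

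With libraries left out in turn, these log2 fold changes changed sign: with the ligature, H2-DMb1 in WT (-0.21 to 0.19) and H2-Oa in CybbKO (-0.017 to 0.68), and between genotypes in ligated tissue H2-Oa (-0.51 to 0.11). In naive tissue they were H2-Aa (-0.039 to 0.27), H2-Ab1 (-0.080 to 0.31), H2-Eb1 (-0.16 to 0.28), Cd74 (-0.035 to 0.48), H2-DMa (-0.10 to 0.39), H2-DMb1 (-0.28 to 0.17) and H2-Ob (-0.10 to 0.058), and for the interaction Cd74 (-0.080 to 0.58). The causes were not tested.

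Over all genes, 481 were called with the ligature in WT, against 1375 by DESeq2, 271 with the replicate block, and 27 (without WT naive replicate 2) to 737 (without WT naive replicate 3) with a library left out. In CybbKO 1954 were called, against 2772 by DESeq2, 1573 with the block and 837 to 2949 with a library left out. Between genotypes in ligated tissue 1 was called, against 14 by DESeq2, and in naive tissue 1 against 2. Requiring 10 or more counts per library removed H2-Oa.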
